A study of Mus musculus with 10 samples.

Results

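The 39 Hox genes are the protein-coding genes of the mouse whose symbol starts with Hoxa, Hoxb, Hoxc or Hoxd and a digit, out of 21938 protein-coding genes in GENCODE M21 on autosomes, X and Y. The rule that picks them reads the symbol alone and no measured value. They lie in 4 clusters on mm10. Hoxa holds 11 genes in 105 kb at chr6:52155590-52260880, Hoxb 10 genes in 174 kb at chr11:96194316-96368256, Hoxc 9 genes in 116 kb at chr15:102921103-103036852, and Hoxd 9 genes in 96.8 kb at chr2:74668310-74765142. The accessible chromatin and the H3K4me3 of these clusters were described in primary neural stem and progenitor cells (NSPCs) from the brains of C57BL/6 mice at postnatal day 5. All cells were grown with 20 ng/ml of FGF2. Activated NSPCs also received 20 ng/ml of EGF and divide, whereas quiescent NSPCs received 25 ng/ml of BMP4 and no EGF for 4 days by the sample labels, and for 72 h before ATAC-seq by the methods. Reactivated NSPCs were made quiescent with BMP4 for 4 days and returned to EGF and FGF2 for a further 9 to 12 days. ATAC-seq, in which a transposase cuts open chromatin, had 2 libraries per state, described by the study as biologically independent, so that each spread below is between 2 cultures. H3K4me3 ChIP-seq had 1 library in the quiescent and 1 in the activated state, and no difference between those libraries has a replicate check. The cultures are a mixture of stem and progenitor cells kept for a few passages, and a peak in a mixture cannot tell a site open in few cells from one weakly open in many.

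Hox genes encode homeodomain transcription factors that give cells their position along the head-to-tail axis of the embryo. The genes of a cluster are numbered by paralog group, and low numbers are used toward the head and high numbers toward the tail. In the nervous system Hox genes are known for the hindbrain and the spinal cord, while the forebrain forms without them. Where they are silent, their CpG-rich promoters are the textbook target of the Polycomb complexes, and CTCF bound between Hox genes separates active from silent stretches. H3K4me3 is the histone mark of CpG-rich promoters that are active or poised.

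The sequences below are those on which the results turn. The first 4 are all the ATAC sites of the clusters that lie more than 1 kb from a Hox transcription start site (TSS) and have a peak in at least 2 libraries, printed from GRCm38.p6, the reference of mm10, on the plus strand. Capitals mark a match to the CTCF core motif with at most 1 mismatch, and 3 of the 4 hold none. The last 2 are the 250 bases upstream of a RefSeq TSS (GRCm38.p6) on the minus strand, with each CpG in capitals, and show a Hox promoter with strong H3K4me3 (Hoxa5) beside one with as dense CpGs and no peak of either kind in any library (Hoxa13, the entry with the most CpGs among those with no peak and no UTR base).
Between Hoxa6 and Hoxa7, chr6:52211615-52211851: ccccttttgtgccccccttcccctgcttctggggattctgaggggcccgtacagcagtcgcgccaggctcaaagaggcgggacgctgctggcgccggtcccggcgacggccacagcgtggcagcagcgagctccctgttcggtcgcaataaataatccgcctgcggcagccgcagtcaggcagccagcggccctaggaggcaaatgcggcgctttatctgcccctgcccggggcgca
Between Hoxb9 and Hoxb8, chr11:96278850-96279064: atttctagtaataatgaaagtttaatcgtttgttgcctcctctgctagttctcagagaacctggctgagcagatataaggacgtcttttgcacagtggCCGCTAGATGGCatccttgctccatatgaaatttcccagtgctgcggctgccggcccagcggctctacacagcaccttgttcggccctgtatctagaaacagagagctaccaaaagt
Between Hoxc9 and Hoxc8, chr15:102987458-102987739: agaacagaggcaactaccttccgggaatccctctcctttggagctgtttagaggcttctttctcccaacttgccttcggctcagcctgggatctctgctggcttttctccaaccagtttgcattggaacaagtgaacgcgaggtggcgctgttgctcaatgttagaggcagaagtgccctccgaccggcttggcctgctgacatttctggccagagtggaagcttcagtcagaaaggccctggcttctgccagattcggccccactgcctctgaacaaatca
Inside the Hoxd3 and Hoxd4 records, chr2:74715875-74716080: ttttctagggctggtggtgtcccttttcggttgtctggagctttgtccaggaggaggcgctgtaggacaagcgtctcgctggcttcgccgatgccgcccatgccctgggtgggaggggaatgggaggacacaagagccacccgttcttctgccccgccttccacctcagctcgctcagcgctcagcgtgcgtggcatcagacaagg
Upstream of Hoxa5, chr6:52204588-52204837: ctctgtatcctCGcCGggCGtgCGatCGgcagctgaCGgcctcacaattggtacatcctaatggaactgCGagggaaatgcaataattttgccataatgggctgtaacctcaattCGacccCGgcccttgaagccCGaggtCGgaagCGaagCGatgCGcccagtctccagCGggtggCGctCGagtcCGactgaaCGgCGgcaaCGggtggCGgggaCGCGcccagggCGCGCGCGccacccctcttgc
Upstream of Hoxa13, chr6:52260881-52261130: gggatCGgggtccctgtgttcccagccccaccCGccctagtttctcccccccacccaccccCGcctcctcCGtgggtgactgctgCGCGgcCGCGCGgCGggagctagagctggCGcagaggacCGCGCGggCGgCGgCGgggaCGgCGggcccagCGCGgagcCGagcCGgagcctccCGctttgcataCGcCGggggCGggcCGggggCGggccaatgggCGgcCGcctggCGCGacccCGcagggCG

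The 6 ATAC lists held 47323 to 60881 peaks in the quiescent and activated libraries and 106586 and 107137 in the reactivated ones, whose peak names say that reads were downsampled before the calls. The H3K4me3 lists held 17186 quiescent and 15980 activated peaks. Peaks were called by MACS in each library on its own, and each has a fold enrichment, the pileup of reads at its summit over the local background. The background most often met was 12.1 reads in quiescent replicate 2 and 6.01 to 6.61 in the others, and the lowest pileup called was 25 reads in that library and 16 or 17 in the others. As fold enrichment at that background the lowest called was 1.99 in quiescent replicate 2 and 2.26 to 2.42 in the others. No peak therefore means that accessibility was not detectable at this depth, not that it is absent. Peak names put quiescent replicate 2 and activated replicate 1 on the same sequencing lane number, and the other quiescent and activated libraries on lanes of other numbers. All 8 promoters of neural stem and progenitor markers were open in both quiescent and in both reactivated libraries, and 7 in both activated ones (Slc1a3, a glutamate transporter of astroglia, had a peak in neither). No library had a peak at Cdh5, Pecam1 or Cldn5, which mark endothelium. Of 4 markers each of astrocytes, neurons, oligodendrocytes and microglia, 2, 2, 1 and 0 were open in both quiescent, 1, 2, 1 and 0 in both activated and 3, 3, 2 and 1 in both reactivated libraries, and of 3 fibroblast and pericyte markers 0, 1 and 2 were. Their part in the Hox results was not tested.

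Almost no Hox promoter had an ATAC peak in quiescent or activated NSPCs. A promoter was taken as 1 kb on each side of any TSS of a protein-coding transcript. By this rule 1 Hox gene had a peak in quiescent replicate 1, 0 in replicate 2, 1 in activated replicate 1 and 0 in replicate 2, and the gene was Hoxa7 both times. Over all protein-coding genes 56.3% to 58.1% had a peak in these 4 libraries. No Hox gene was open in both quiescent libraries, against 54.6% of all genes, and none in both activated libraries, against 55% of all genes. In the reactivated libraries 6 and 4 Hox genes had a promoter peak (65.6% and 65.4% of all genes), and 3 had it in both, among them Hoxa5 and Hoxa7 (64.2% of all genes). A peak in at least 1 library of the state was found at 1 Hox gene in quiescent (59.4% of all genes), 1 in activated (59.3%) and 7 in reactivated NSPCs (66.8%). Over the 6 libraries 7 of the 39 had a promoter peak at least in 1 library (67.5% of all genes), and none had it in all 6 (52.2% of all genes). The two-sided exact permutation tests over libraries cannot pass 0.05 here, since the smallest p with 2 against 2 is 0.33. The number of Hox promoters with a peak was 0.50 ± 0.71 (SD, n = 2) in quiescent and in activated and 5 ± 1.41 in reactivated libraries, with an exact p of 0.33 for reactivated against either state (0.50 after Benjamini-Hochberg adjustment over 3 pairs of states) and of 1 for activated against quiescent. With each list limited to its 47037 strongest peaks, the length of the shortest list, 0 Hox genes were open in both reactivated libraries, against 56.6% of all genes. The counts per reactivated library were then 1 and 0, against 58.0% and 58.1% of all genes.

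**Figure D1:**
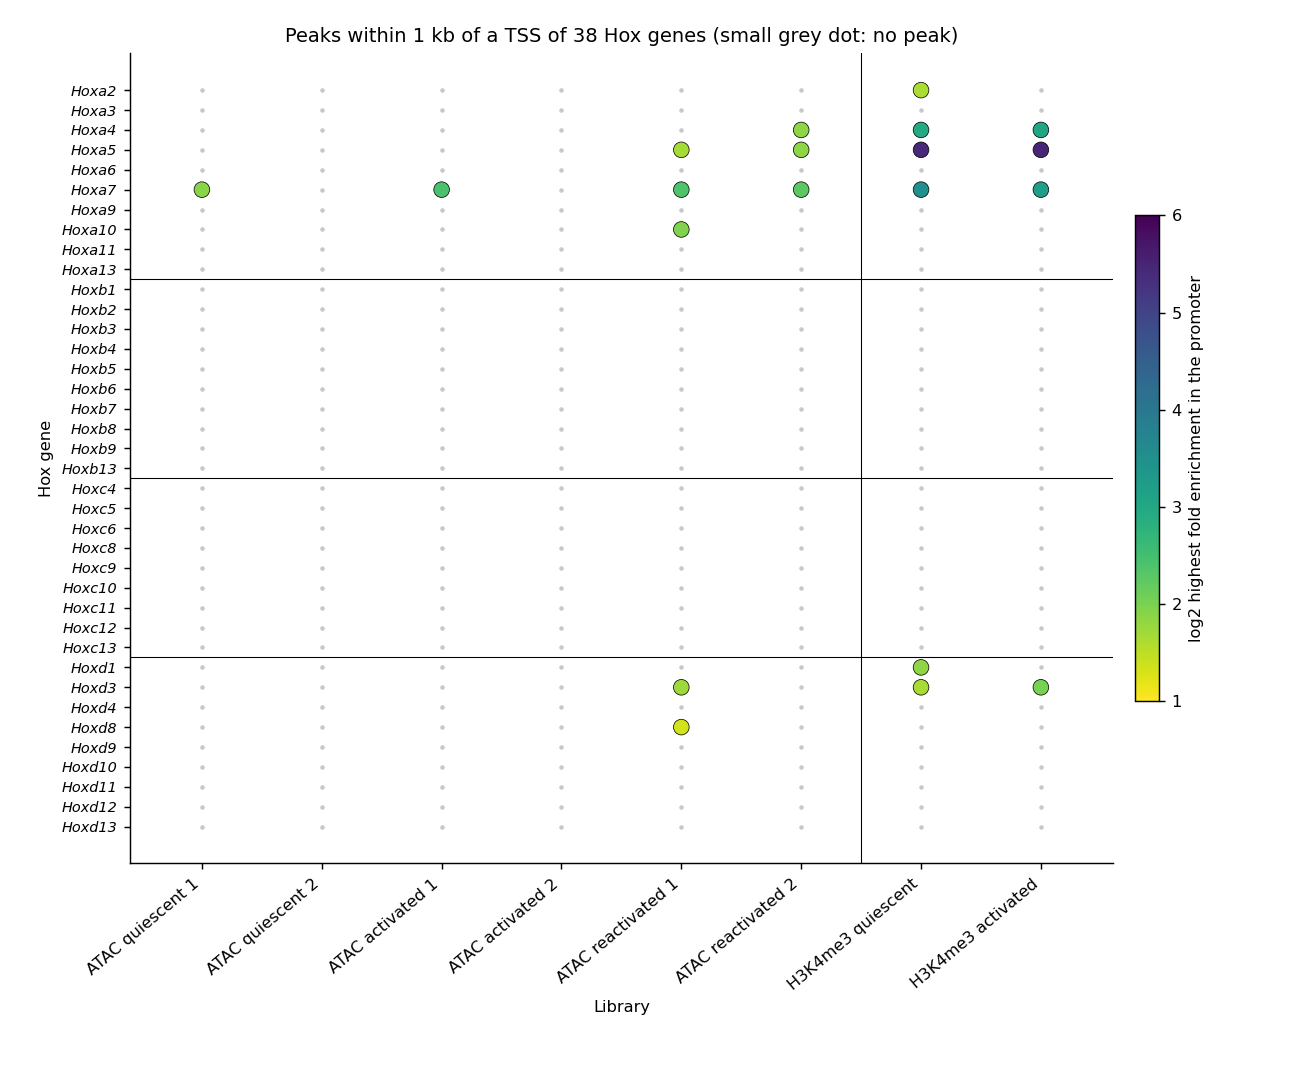
Each row is one of 38 Hox genes and each column a library. A filled circle is a peak within 1 kb of a TSS, coloured by log2 of its highest fold enrichment, and a small grey dot is no peak. The genes with an ATAC peak are in Hoxa and Hoxd, and only the Hoxa7 row has one outside the reactivated libraries.

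Most of the Hox promoters, but not all, have the base composition of genes that are mostly open. With 500 bp on each side of 1 TSS per gene, 25 of the 39 Hox promoters were CpG-rich (64.1%), meaning a GC content of at least 50% and a ratio of observed to expected CpG of at least 0.6, against 40.7% of all genes. Their median GC content was 57.0% (all genes 54.2%) and their median CpG ratio 0.704 (all genes 0.490). Of all CpG-rich promoters 88% were open in both quiescent, 89.4% in both activated and 96.7% in both reactivated libraries, and 0, 0 and 3 of the 25 CpG-rich Hox promoters were. H3K4me3 in both states was on 95.5% of all CpG-rich promoters and on 4 of the 25. Neither an ATAC peak in 6 libraries nor an H3K4me3 peak in 2 was found at 17 of these 25, where 1.63% of all CpG-rich promoters had neither. The comparison with CpG-rich promoters was added after the data had been seen. Over all 39 Hox genes 30 had neither kind of peak, against 31.8% of all genes. In the 250 bases upstream of the RefSeq TSS, the Hoxa5 sequence above holds 28 CpGs and the Hoxa13 sequence 35, where the median was 12.5 over 24 Hox entries and 6 over all 32851 entries.

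The genes with promoter peaks were in Hoxa and Hoxd and mostly of low paralog number. In Hoxa 5 of 11 genes had an ATAC promoter peak in some library and in Hoxd 2 of 9, while 0 of the 10 Hoxb and 0 of the 9 Hoxc genes did. Of all genes 67.5% had one, and 60.6% had H3K4me3 in quiescent and 59.5% in activated NSPCs. Of the 20 genes of paralog groups 1 to 7, 5 had an ATAC peak and 7 an H3K4me3 peak in some library. Of the 19 genes of groups 8 to 13, 2 had an ATAC peak (Hoxa10 and Hoxd8, both in reactivated replicate 1 alone) and none an H3K4me3 peak. The differences between clusters and between paralog groups were not tested.

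Hoxa7, a gene of the trunk, was the Hox gene with peaks in the most libraries. Its fold enrichment was 3.68 in quiescent replicate 1, 5.44 in activated replicate 1, and 5.27 and 4.79 in the reactivated replicates, with no peak in quiescent replicate 2 or activated replicate 2. The peaks stood on 27, 40, 40 and 35 reads. They share a site of 282 bp at chr6:52221680-52221961, over an exon of Hoxa7 and its upstream-most TSS, and an H3K4me3 peak covered it in both states. The quiescent and activated states each had a library with and a library without the peak, so they did not differ beyond their replicates. With lists of equal length the peaks of quiescent replicate 1 and activated replicate 1 were kept, and 0 reactivated libraries had a Hoxa7 peak. A further Hoxa7 site, at chr6:52217149-52217325 beside an inner TSS, had a peak in reactivated replicate 2 alone, of 2.79 fold.

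The promoter call of 2 Hox genes, among them Hoxa5, differed between states. Both had a peak in both reactivated and in no quiescent or activated library, as had 3.67% of all genes. Reactivated against quiescent alone, 5.83% of all genes met that rule and 2 of 39 Hox genes (5.13%). Reactivated against activated, 5.37% of all genes and the same 2 Hox genes met it. The Hox share is near the background in both comparisons, but the rule needs no peak in the other state, and more of the Hox genes could meet it. At least 1 quiescent library had a peak at 59.4% of all genes and 1 Hox gene, and at least 1 activated library at 59.3% and 1. Without reactivated replicate 2 the Hox share was 5 of 39 genes in each comparison, against 7.06% and 6.61% of all genes. No Hox gene was open in activated and not in quiescent NSPCs (0.939% of all genes) or the reverse (0.738%), and none was open in quiescent (0.0593%) or activated (0.0228%) and not in reactivated NSPCs.

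Hoxa5, known for lung and cervical spinal cord, had 2 weak sites in both reactivated replicates. The site across its TSS, chr6:52204452-52204685, had 3.20 and 2.53 fold on 23 and 18 reads, and the site in its exon, chr6:52203788-52203995, had 2.67 and 3.59 fold on 19 and 26 reads. The highest peak of each library was at the 17.7 and 26.2 percentile of its list. No Hoxa5 peak was left in any library at a minimum −log10 q of 10 or with lists of equal length.

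The remaining promoter peaks were in 1 library each. Hoxa4 had a peak of 3.59 fold in reactivated replicate 2, while Hoxa10 (3.87), Hoxd3 (3.34) and Hoxd8 (2.53) had theirs in reactivated replicate 1. Leaving out reactivated replicate 1 would lower the number of Hox genes with any ATAC peak from 7 to 4 (then 66.4% of all genes). Leaving out replicate 2 would raise the number called open in reactivated NSPCs from 3 to 6 (then 65.6% of all genes). No ATAC peak in any library lay within 1 kb of a protein-coding transcript's TSS at the other 32 Hox genes, among them all of Hoxb and Hoxc and the tail-end genes Hoxa11, Hoxa13 and Hoxd9 to Hoxd13.

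**Figure D2:**
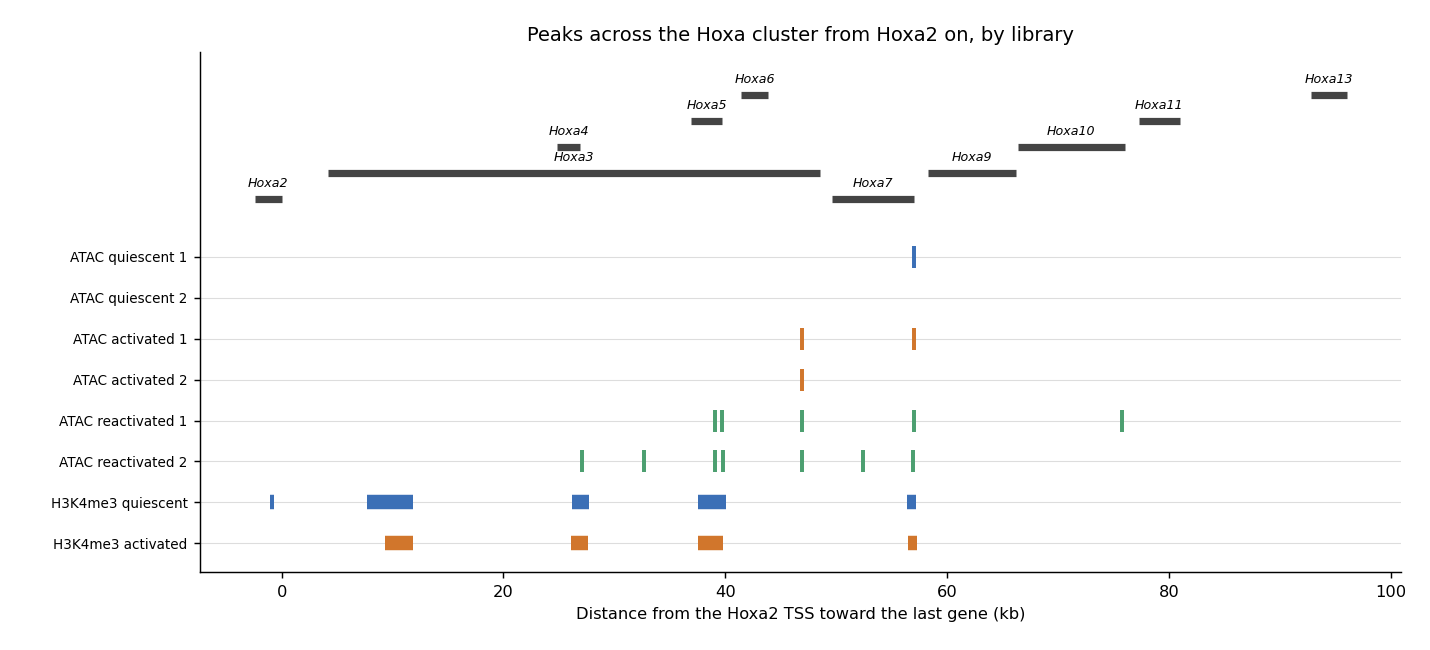
The Hoxa cluster from Hoxa2 on, with the distance from the Hoxa2 TSS in kb toward Hoxa13 on the x axis, gene records as bars at the top and a row for each library. ATAC peaks are ticks of fixed width and H3K4me3 peaks are bars to scale. H3K4me3 regions lie over the part from Hoxa2 to Hoxa7, and ATAC peaks in quiescent and activated libraries are at Hoxa7 and between Hoxa6 and Hoxa7.

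H3K4me3 was present on part of the Hoxa cluster in both states and on few places elsewhere. Of the Hox genes 7 had an H3K4me3 promoter peak in quiescent NSPCs (17.9%, against 60.6% of all genes) and 5 in activated NSPCs (12.8%, against 59.5%). These 5, among them Hoxa4, Hoxa5, Hoxa7 and Hoxd3, had a peak in both states (59.4% of all genes). The other 2, Hoxa2 and Hoxd1, had one in the quiescent library only (1.28% of all genes), and none had one in the activated library only (0.114%). These calls compare 1 library with 1 library and are given with no test.

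The strongest mark was at Hoxa5, with 43.4 fold over 2547 bp in quiescent and 44.3 fold over 2217 bp in activated NSPCs. It stood at the 77.6 and 83.2 percentile of the H3K4me3 lists, whose median was 28.3 fold in both. Hoxa7 had 11.6 and 9.20 fold, and Hoxa4 7.76 and 8.23 fold. The weak marks were at Hoxd3, with 3.14 and 4.05 fold, and in the quiescent library alone at Hoxa2, with 3.11 fold, and Hoxd1, with 3.60 fold. Hoxa2 is a hindbrain gene, and Hoxd1 and Hoxd3 belong to the head end of their cluster. The peaks at Hoxa2 and Hoxd1 stood at the 2.15 and 6.87 percentile of the quiescent list.

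A further wide region was not at a protein-coding Hox TSS, and its fold enrichment was at the 35.7 and 34.7 percentile of the lists. It lay inside the long Hoxa3 gene record, at chr6:52172555-52176703 with 16.6 fold over 4149 bp in quiescent and at chr6:52174131-52176672 with 17.6 fold over 2542 bp in activated NSPCs. The TSS of Hoxaas3, a noncoding antisense gene of Hoxa3, is within 1 kb of it. No ATAC library had a peak in it. In Hoxc the single H3K4me3 region, of 4.24 fold in the quiescent library alone, lay at chr15:102999113-102999460 near the TSS of a noncoding transcript of Hoxc6, and counting the TSSs of all transcripts, an alternative added after the data had been seen, made the quiescent genes 9, with Hoxc6 and Hoxd4, and the activated genes 6, with Hoxd4. Hoxb had no H3K4me3 peak in either state.

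Between the states, H3K4me3 strength at the Hox promoters stayed within the fold used for a call. Over 13021 promoters with a peak in both lists the median log2 ratio of activated to quiescent fold enrichment was −0.11, and ratios below are relative to it. Hoxd3 was at 0.48, Hoxa4 at 0.20, Hoxa5 at 0.14 and Hoxa7 at −0.22. None of the 5 passed 1.5-fold, as did 1.71% of all promoters toward activated and 2.66% toward quiescent NSPCs. The bases of the 4 clusters under H3K4me3 were 15178 in the quiescent library (3.09% of the clusters, 1.20% of the genome) and 10497 in the activated one (2.13%, and 1.09% of the genome). Nearly all of them were in Hoxa, of which 13.4% was covered in quiescent and 9.50% in activated NSPCs, where its flanks of equal length on each side had 1.04% and 0.606%.

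H3K4me3 and ATAC peaks parted at the Hox promoters. Of the 5 Hox promoters with H3K4me3 in both states, 4 (among them Hoxa4, Hoxa5 and Hoxd3) had no ATAC peak in any of the 4 quiescent and activated libraries, where 4.26% of the 13021 genes with H3K4me3 in both states had none. The fifth was Hoxa7. In the quiescent and activated H3K4me3 lists Hoxd3 stood at the 2.44 and 6.47 percentile, Hoxa4 at 24.5 and 21.6, and Hoxa5 at 77.6 and 83.2. The 4.26% is over promoters of all H3K4me3 strengths, and a share at like strength was not computed. Each of the 4 had a peak in at least 1 reactivated library, and H3K4me3 of reactivated NSPCs was not analysed here.

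**Figure D3:**
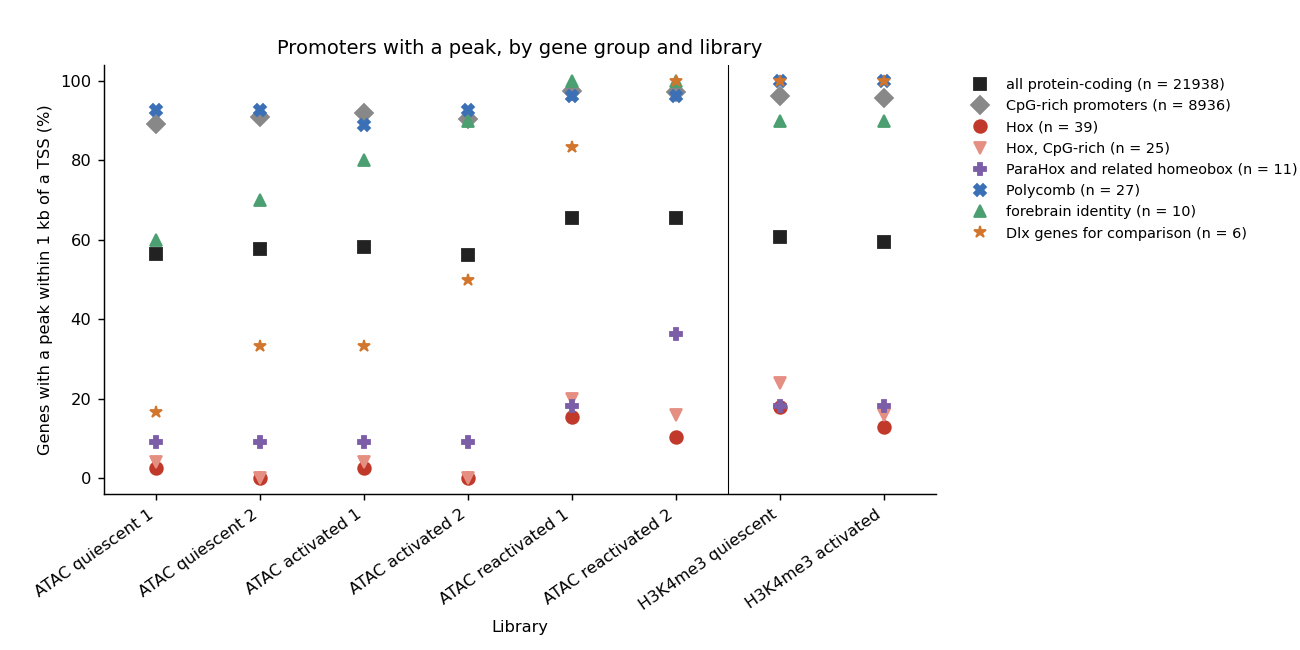
The share of genes with a peak within 1 kb of a TSS, in percent, for each library (x axis) and gene group (symbols). The Hox points lie between 0 and 15.4% in the ATAC libraries, where all protein-coding genes lie between 56.3% and 65.6%, and at 17.9% and 12.8% in the H3K4me3 libraries.

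Across the whole clusters, promoters and the space between, peaks of the 6 libraries merged into 19 ATAC sites, 9 in Hoxa, 3 in Hoxb, 2 in Hoxc and 5 in Hoxd. They are narrow (median 209 bp, all sites 282 bp) and rich in GC (median 64.7% in the central 150 bp, all sites 52.7%). The highest peak of each site and library had 18 to 53 reads, and the median percentile of fold enrichment was 39.2. The 2 reactivated libraries had a peak at 15 and 12 of the sites, the activated ones at 4 and 1, and the quiescent ones at 1 and 0. Of the 19 sites 15 had peaks in reactivated libraries only, against 36.7% of all 108367 sites, 11 had a peak in a single library (57.9%, all sites 31.0%), and none had a peak in all 6 (21.3% of all sites). Open in both reactivated and neither quiescent library were 7 of the 19 sites (23.5% of all sites), and open in both reactivated and neither activated library 4 (21.8%). None was open in both quiescent and neither activated (6.26%) or neither reactivated library (1.9%), or in both activated and neither reactivated library (0.26%). All 4 sites with a peak in a quiescent or activated library also had peaks in both reactivated libraries as the lists stand. With lists of equal length 3 sites were left away from the promoters, of which 1 was open in activated and 0 in reactivated NSPCs. At that site, between Hoxa6 and Hoxa7, the reactivated peaks had the higher fold enrichment (5.20 and 5.85, against 3.98 and 3.99 in activated). Their −log10 q of 15.0 and 18.9 was below the stricter reactivated cutoff of 20.6 and 19.8.

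**Figure D4:**
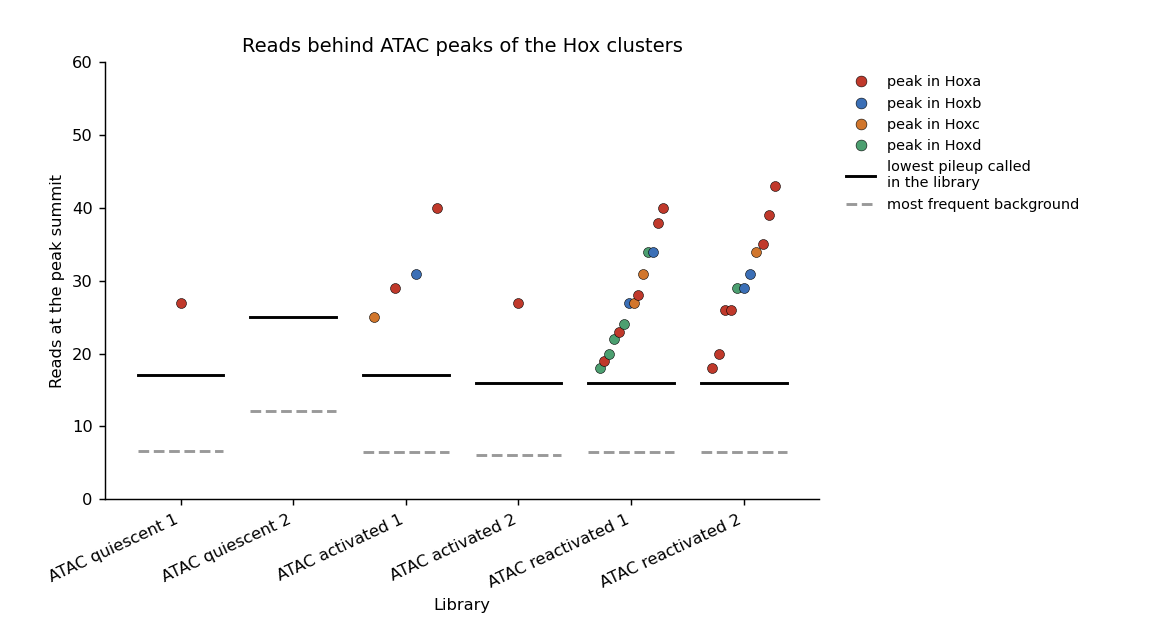
Reads at the summit of the ATAC peaks of the Hox clusters, those at the genes shown in the plot of promoter peaks and between genes, by library and coloured by cluster. The black line is the lowest pileup called in the library and the dashed line its most frequent background. The highest peak shown has 43 reads, and quiescent replicate 2 has no peak.

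The bases of the clusters under ATAC peaks were 180 and 0 in the quiescent, 713 and 181 in the activated and 3859 and 3167 in the reactivated libraries. As a share of the clusters that is 0.0183% ± 0.0259 (SD, n = 2), 0.0909% ± 0.0765 and 0.714% ± 0.0995, where the genome had 0.586%, 0.558% and 1.13%. The groups did not overlap, but quiescent replicate 1 (180) and activated replicate 2 (181) were almost level, so these 2 states were hardly set apart. The exact permutation p was 0.33 for each pair of states (0.33 adjusted over the 3 pairs), the smallest possible. Flanks of the same length on each side of the clusters had 0.320% and 0.438% covered in the quiescent, 0.533% and 0.403% in the activated and 1.17% and 0.887% in the reactivated libraries. With lists of equal length the reactivated mean was 194.5 bases in place of 3513, below the activated mean of 447 and above the quiescent mean of 90, both of which stayed as they were. The cutoff of those lists was stricter in the reactivated libraries.

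Away from the promoters, 10 sites lay more than 1 kb from a Hox TSS, and 4 of them were open in both reactivated libraries. The only site of the clusters open in both activated and neither quiescent library lay between Hoxa6 and Hoxa7 (chr6:52211615-52211851, the first sequence above), in an intron of the long Hoxa3 record and 1264 bp from the nearest TSS of its protein-coding transcripts. Its fold enrichment was 3.98 and 3.99 in the activated and 5.20 and 5.85 in the reactivated replicates, on 29, 27, 38 and 43 reads, and the quiescent libraries had no peak there. Over all sites 4.24% met that rule. The lowest pileup called was 17 reads in quiescent replicate 1 and 25 reads in quiescent replicate 2, whose most frequent backgrounds were 6.61 and 12.1 reads. As fold enrichment at those backgrounds the lowest called was 2.36 and 1.99, both below the activated values. At a minimum −log10 q of 10 the site had no peak in the activated libraries. With a promoter of 2 kb on each side the site counts for Hoxa3. It is then the only Hox gene called open in activated and not in quiescent NSPCs (0.962% of all genes).

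Hoxb and Hoxc each had a site between genes that was open in both reactivated libraries and in activated replicate 1. The Hoxb site, between Hoxb9 and Hoxb8, had 4.24 fold in activated replicate 1 and 4.67 and 3.99 fold in the reactivated replicates. The Hoxc site, between Hoxc9 and Hoxc8 and inside the long Hoxc5 record, had 3.45, 3.74 and 4.65 fold. Both are within about 3 kb upstream of a group 8 gene, at 2841 bp from the Hoxb8 TSS and 2868 bp from the Hoxc8 TSS, and neither had H3K4me3. Neither had a peak in a quiescent library or in activated replicate 2.

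In Hoxd the site open in both reactivated libraries and no other lay at chr2:74715875-74716080, inside the long Hoxd3 and Hoxd4 records and in an exon of the antisense gene Hoxd3os1, with 4.67 and 3.99 fold. It and the 2 Hoxa5 sites were among 4 of 19 sites with peaks in both reactivated and no other library, against 14.8% of all sites. The other 6 sites away from promoters were in 1 reactivated library each and ranged from 2.80 to 5.32 fold. The highest of them lay between Hoxa4 and Hoxa5 at chr6:52197382-52197569. In Hoxb, replicate 1 had 3.74 fold at chr11:96294655-96294805, inside the Hoxb6 record, and replicate 2 had 4.26 fold at chr11:96311625-96311833, between Hoxb5 and Hoxb4. In Hoxc, replicate 1 had 4.27 fold at chr15:102999274-102999508, which overlaps the quiescent H3K4me3 region at the noncoding Hoxc6 transcript. In Hoxd, a site of 3.07 fold in replicate 1 at chr2:74752992-74753157 lay within 1 kb of the TSS of Haglr, a noncoding gene between Hoxd3 and Hoxd1.

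**Figure D5:**
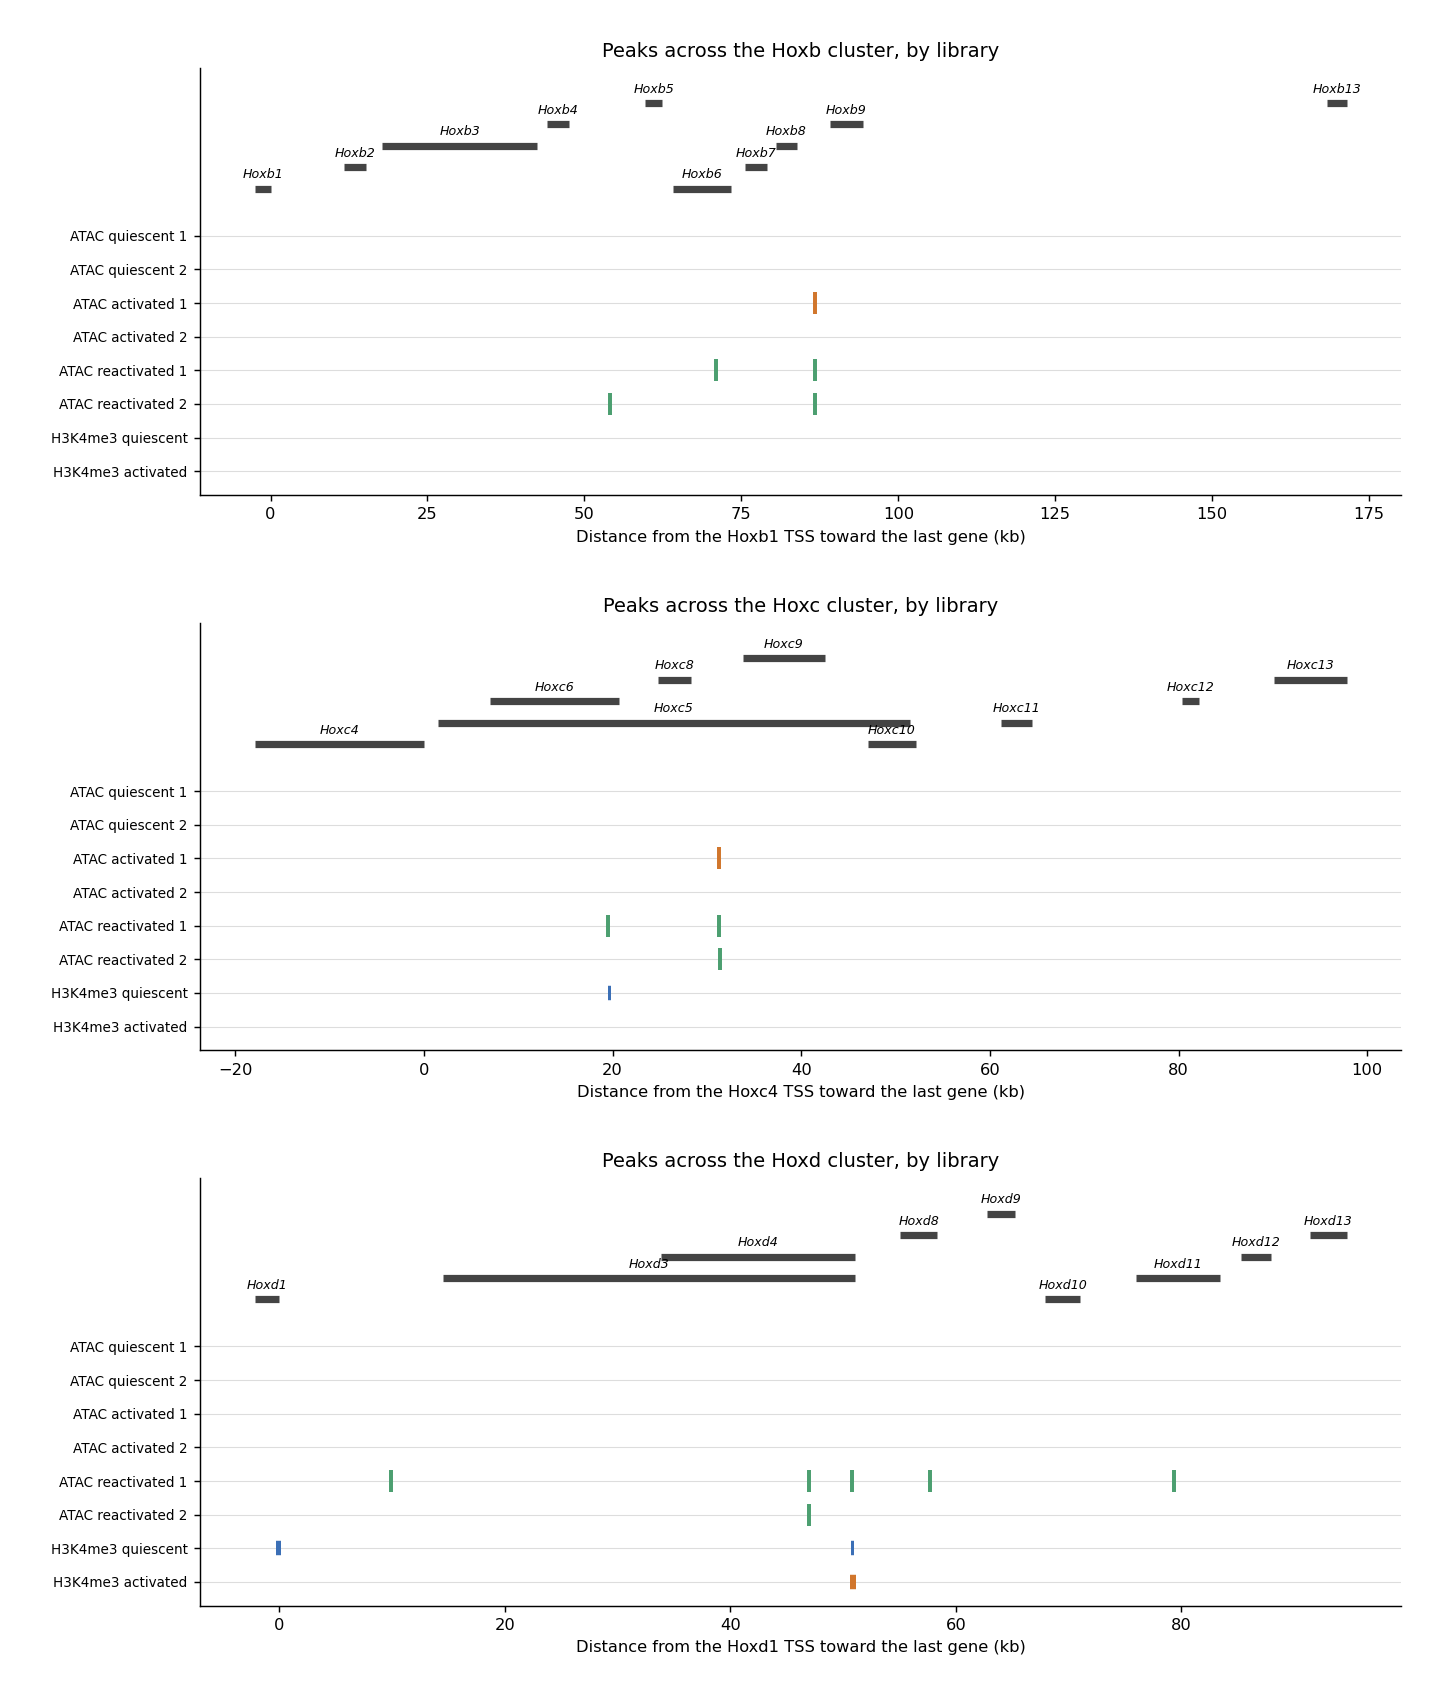
The Hoxb, Hoxc and Hoxd clusters drawn like Hoxa, with the distance in kb from the upstream TSS of the lowest-numbered gene. Hoxb and Hoxc have 3 and 2 ATAC sites, none at a promoter, and Hoxd has 5, of which 1 is in both reactivated libraries.

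In the sequences, the CTCF core motif, searched on both strands, had no exact match in any of the 19 sites, where 4.35% of all sites had one. With 1 mismatch allowed 5 of 19 sites had a match (26.3%) and 15.5% of all sites. In the central 150 bp of each site, a length equal for all, it was 4 of 19 and 11.4%. The match in the Hoxb site is at bases 99 to 110 of the printed sequence, on the plus strand. The other 4 sites with a match lay at promoters of Hoxa5, Hoxa7, Hoxa10 and Hoxd3. Short motifs were chosen after the data had been seen. In the same 150 bp windows, on both strands, TTGGC, part of the NFI motif, was in 6 of 19 Hox sites and in 35.7% of all, CAGCTG, an E-box of proneural factors, in 1 and 16.9%, CATTCC, of TEAD factors, in 1 and 9.01%, and TGANTCA, of AP-1, in 0 and 5.82%. TGATNNAT, of Hox proteins with their PBX partners, was in 0 windows and in 3.57% of all. Over whole sites, which differ in length, TTGGC was in 7 of 19 Hox sites and 56.6% of all, CAGCTG in 2 and 30.1%, CATTCC in 3 and 19.4%, TGANTCA in 0 and 11.4%, and TGATNNAT in 2 (10.5%) and 8.51%, the last in the other direction from the windows. These matches are letters in a window and not measured binding.

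No Hox site had a peak in all 6 libraries, so none entered the limma test of fold enrichment, which ran on 23116 sites. Relative to the median of each library 6.35% of those sites were higher and 7.05% lower in activated than in quiescent, 11.5% higher and 25.7% lower in reactivated than in quiescent, and 7.66% higher and 14.5% lower in reactivated than in activated NSPCs (limma, Benjamini-Hochberg adjusted p below 0.05). The balance of directions was set by the scaling. Quantile normalisation gave 13.6% higher and 14.1% lower for reactivated against quiescent and 9.31% and 8.92% for reactivated against activated NSPCs, and values that were not centred gave 68.2% and 0.545%, and 52.6% and 0.472%.

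Genes that work with or on Hox genes were counted in the same way, where 54.6%, 55% and 64.2% of all genes were open in the quiescent, activated and reactivated state and 52.2% in all 6 libraries, and 88%, 89.4% and 96.7% of CpG-rich promoters were open by state. H3K4me3 in both states was on 59.4% of all genes and 95.5% of CpG-rich promoters. Of the 9 TALE cofactors, the Pbx, Meis and Pknox proteins that bind DNA with Hox proteins, 8 were open in both quiescent, 9 in both activated and 9 in both reactivated libraries, and all 9 had H3K4me3 in both states. Among 27 Polycomb genes 23 were open in all 6 libraries and 27 had H3K4me3 in both states, with Pcgf2 alone lacking an ATAC peak. The list of CTCF and cohesin genes also holds Maz, and all 7 of its genes were open in all 6 libraries. So were 8 of 9 trithorax and H3K27 demethylase genes, the exception being Kdm6b. In limma no TALE gene of the 8 with a tested site and no Polycomb gene of the 23 passed the threshold in activated against quiescent NSPCs, and 2 and 3 had an unadjusted p below 0.05, as had 6332 of the 23116 sites. Of the 8 trithorax and demethylase genes tested none passed and 1 had an unadjusted p below 0.05. Of the 7 genes listed with CTCF, Rad21 and Stag1, both of cohesin, were lower in activated NSPCs relative to the library median, as were 7.05% of all sites. They were not called under quantile normalisation or without centring. In reactivated against quiescent NSPCs the direction of most calls depended on the scaling. Relative to the library median, where 25.7% of all sites were lower, 5 TALE, 11 Polycomb and 3 trithorax and demethylase genes were lower and none higher. So were 7 of 7 genes of the CTCF and cohesin list, Maz among them. Quantile normalisation, under which 14.1% of all sites were lower, left 3, 7, 2 and 6 lower, with Maz among the 6. Without centring, where the median difference of all sites was 0.72 (log2), 68.2% of all sites were higher and 99.2% of the calls were toward higher, 2, 10, 4 and 0 were higher and none lower but Kmt2a, a trithorax methyltransferase, which was lower under all 3 scalings, with a log2 difference of −1.90 (SE 0.16, limma adjusted p 5.66e-08) relative to the library median.

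Of 11 ParaHox and related genes 7 had no ATAC peak in any library (Gsx2, Cdx1, Cdx2, Cdx4, Evx1, Evx2 and Meox1), 1 was open in all 6, and 2 had H3K4me3 in each state. Of the 6 Dlx genes, another clustered homeobox family, which acts in forebrain interneurons, 1 was open in both quiescent, 2 in both activated and 5 in both reactivated libraries, and all 6 had H3K4me3 in both states. The forebrain identity genes had 6, 8 and 10 of 10 open in the same order, and Emx1, a cortical gene, was open in both activated and neither quiescent library. Of the 8 midbrain and hindbrain genes 6, 6 and 8 were open, and of the 9 genes of retinoic acid signalling, which sets Hox expression in the embryo, 6, 6 and 7. Of the genes around the clusters, Skap2 beside Hoxa and Lnpk beside Hoxd were open in all 6 libraries, with 9.29 to 18.5 fold and 4.42 to 19.9 fold, and Mtx2 beyond Hoxd in 5. Evx1, at the tail end of Hoxa, Evx2, at that of Hoxd, and Skap1 beside Hoxb had no peak of either kind. These counts are set side by side, and the differences between lists were not tested.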

How the data were processed

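ATAC-seq of 6 libraries and H3K4me3 ChIP-seq of 2 were analysed from peak lists, and input libraries were not analysed here. Per the labels' processing notes the authors used Trim Galore 0.4.0, Bowtie2 2.2.5, Picard 1.88, SAMtools 1.3.1 and HOMER on mm10. They called peaks per library with MACS, for ATAC-seq at an FDR of 0.05 and for H3K4me3 in broad mode against input (q 0.05, broad cutoff 0.01). The deposited lists give a fold enrichment (a ratio over the local background), −log10 p and −log10 q values and a display score. The methods state an approximate sequencing depth for ATAC-seq, but the peak lists hold no read totals, and read totals per library were not used here. Reads at each summit were solved from the deposited fold enrichment and −log10 p for peaks with −log10 p up to 40, and at least 99.98% came out whole, within 0.02%. The labels put quiescence at 4 days, and the methods at 72 h before ATAC-seq.

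Peaks were assigned to TSSs of protein-coding transcripts in GENCODE M21 by an overlap of at least 1 bp with 1 kb on each side. A state was called open with a peak in both libraries. Peaks of the 6 ATAC lists that overlap or adjoin were merged into sites. Python 3.11.15 (numpy 2.4.6, pandas 2.3.3, scipy 1.17.1, matplotlib 3.10.9) was used for counts and exact permutation tests, and limma 3.58.1 in R 4.3.3 for log2 fold enrichment, centred on the library median, at the 23116 sites with a peak in all 6 libraries, with Benjamini-Hochberg adjustment. The scripts were tested on simulated data. The values of 1 Hox gene are not reported here, and counts over the family hold it. Promoter sequences were from RefSeq (GRCm38.p6), where 22 of the 39 genes matched. Named with values were the Hox genes whose promoter call differed between states, those with H3K4me3 in 1 state or among the strongest and weakest of their cluster, and the 3 strongest sites per cluster by mean percentile with all sites open in 1 state only. The remaining Hox genes and sites with a peak were named after their values were seen, and other lists were given by counts. The rule for the members reads symbols alone, but the family, like the lists, was chosen with earlier results of these data known. Alternatives were a minimum −log10 q of 10, lists of equal length, other promoter widths and TSSs, a peak in at least 1 library, other scalings, a replicate block and leaving out each library.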

Additional observations from a re-analysis of the deposited data

How the results depend on the processing

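Peak lists without reads limit these results, since a site below the call threshold has no value, and with 2 libraries per state the exact tests cannot pass 0.05. At a minimum −log10 q of 10, 2 Hox genes had an ATAC promoter peak in any library (63.3% of all genes). Of the Hox genes 1 was open in reactivated and not in activated NSPCs (7.46% of all genes), and 4 had quiescent H3K4me3 (58.5%). The mean of covered bases was 0 in quiescent, 87 in activated and 1723.5 in reactivated libraries. Away from promoters lay 5 sites, of which 0 were open in activated and 1 in reactivated NSPCs. With each list limited to its 47037 strongest peaks, the cutoff was stricter in the reactivated lists. Then 2 genes had a peak in any library (61.9% of all genes) and 0 were open in reactivated NSPCs (56.6%). Open in reactivated and not in quiescent NSPCs were 0 (2.16% of all genes), and in reactivated and not in activated 0 (1.40%). The reactivated mean was 194.5 bases, and of 3 sites away from promoters 0 were open in reactivated NSPCs. With 2 kb promoters 1 gene was open in activated (56.5% of all genes) and 1 in activated and not in quiescent NSPCs (0.962%), Hoxa3 in both cases. With 1 TSS per gene, the nearest upstream of the start codon, 5 genes had quiescent (53.1% of all genes) and 3 activated H3K4me3 (52.0%). With the 5′ end of the gene record 9 and 6 had it (57.5% and 56.4% of all genes). With a peak in at least 1 library counted as open, 1, 1 and 7 genes were open in quiescent, activated and reactivated NSPCs (59.4%, 59.3% and 66.8% of all genes). Allowing 1 mismatch gave 5 sites with the CTCF core motif.

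Leaving out each library in turn gave 0 to 1 gene open in quiescent NSPCs (1 without quiescent replicate 2, against 56.3% of all genes). In activated NSPCs it gave 0 to 1 (1 without activated replicate 2, against 58.1%). In reactivated NSPCs it gave 3 to 6 (6 without reactivated replicate 2, against 65.6%), and in any library 4 to 7 (4 without reactivated replicate 1, against 66.4%). Open in reactivated and not in quiescent were 2 to 5, and in reactivated and not in activated NSPCs 2 to 5 (5 of 39 in both without reactivated replicate 2, against 7.06% and 6.61% of all genes). The sites away from promoters were 6 to 10 (6 without reactivated replicate 1), with 1 to 3 open in activated (3 without activated replicate 2) and 4 to 8 in reactivated NSPCs (8 without reactivated replicate 2). Covered bases were 0 to 180, 181 to 713 and 3167 to 3859 in quiescent, activated and reactivated NSPCs.

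The limma test called 3098 sites in activated against quiescent, 8589 in reactivated against quiescent and 5134 in reactivated against activated NSPCs. It called 1116, 4745 and 2739 at the minimum −log10 q of 10, and 2628, 15882 and 12274 without centring. The share of calls toward higher was 47.4%, 30.8% and 34.5%, under quantile normalisation 56.5%, 49.2% and 51.1%, and without centring 83.2%, 99.2% and 99.1%. Leaving out a library gave 1853 to 2491, 4529 to 10048 and 1039 to 5636 sites. Counts fell by over 1.5 times without quiescent replicate 2 in the comparison of activated with quiescent NSPCs (1853), without reactivated replicate 1 or 2 in that of reactivated with quiescent (4529 and 5450), and without reactivated replicate 1 or 2 or activated replicate 2 in that of reactivated with activated NSPCs (1039, 1760 and 3033). No Hox site was tested under any of these settings.

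The replicate block gave 3231, 8731 and 5290 sites in limma and by its construction left the Hox promoter calls as they were, with 2 open in reactivated and not in quiescent NSPCs, 2 in reactivated and not in activated, and 0 in the others. Deviations of libraries with the same replicate number correlated at −0.00133, 0.0423 and −0.0173 over the pairs of states, so the numbers did not pair the libraries.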
